A study of Homo sapiens with 11 samples.

Results

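The MHC class I antigen presentation genes examined here were HLA-B, HLA-C, HLA-E, HLA-F, B2M, TAP1, TAP2, PSMB8 and PSMB9. They were chosen by gene symbol, and they make up 9 of the 28252 genes in the RT4 RNA-Seq files and 5 of the 26237 promoters in the BEAS-2B H3K4me3 ChIP-Seq files. RT4 is a human urinary bladder epithelial cell line from a low-grade bladder tumor, and it was examined as 2 replicates each of untreated (UT) cells, nickel-exposed (Ni-E) cells kept for 6 weeks in 100 μM NiCl2, and nickel-washed-out (Ni-W) cells, which had the same exposure followed by 2 weeks in nickel-free medium. BEAS-2B is an immortalized human bronchial epithelial line, with a single H3K4me3 library for each condition. Its Ni-E cells had the same dose and duration, and its Ni-W cells were a population grown from a single colony and kept without nickel for more than 6 months. The labels name 2 weeks of washout for both lines, besides the longer time for the BEAS-2B population. The RT4 libraries held 17075833 to 27736454 estimated counts, with fewer in replicate 1 of each group than in replicate 2. All 12 urothelial and all 7 epithelial marker genes had a mean of at least 1 TPM in RT4 cells, while the lymphocyte markers CD3E and MS4A1 were at 0 in all 6 libraries and the myeloid markers ITGAM and CD68 had means of 6.21 and 10.8 TPM. Other immune cell markers were near 0, with means of 0.298 TPM for CD14, 0.0917 for LYZ, 0.0183 for CSF1R and 0.0117 for PTPRC.

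MHC class I molecules display peptides from inside the cell to CD8 T cells and natural killer cells. HLA-B and HLA-C encode classical heavy chains, HLA-E and HLA-F encode non-classical ones, and B2M encodes β2-microglobulin, the light chain of class I molecules. PSMB8 and PSMB9 encode inducible catalytic subunits of the immunoproteasome, which cuts proteins into peptides, and TAP1 and TAP2 form the transporter that carries these peptides into the endoplasmic reticulum. In epithelial cells this set of genes is known as a target of interferons, of NF-κB and of the transactivator NLRC5. Histone H3 lysine 4 trimethylation (H3K4me3) marks promoters of active genes.

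In the listed values the light chain was by far the most abundant transcript of the set in RT4 cells. On the TPM scale, which allows for gene length, the mean over the 6 libraries was 1901 for B2M, 31.3 for HLA-B, 3.66 for HLA-F, 1.00 for PSMB8, 0.568 for TAP1, 0.345 for HLA-C and 0.0117 for TAP2. HLA-E and PSMB9 were listed at 0 in every library. Of the 19447 genes with any counts, 99.6% had a lower mean TPM than B2M, 77.1% a lower one than HLA-B and 43.4% a lower one than HLA-F. In UT cells the TPM of PSMB8 was 0.96 ± 0.622 (SD, n = 2), that of TAP1 0.445 ± 0.403 and that of HLA-C 0.45 ± 0.113, so that these 3 neighbors in the order did not differ beyond their spread.

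Several members had almost no counts. HLA-C had 7 and 8 estimated counts in the UT libraries, 4 and 7 in Ni-E and 5 and 3 in Ni-W. TAP2 had 1 count in each Ni-E library and 0 elsewhere. TAP1 had 7 to 25 counts and PSMB8 8 to 19, against 335 to 784 for HLA-B, 21 to 107 for HLA-F and 25151 to 50176 for B2M. A value of 3 counts, taken as the floor, corresponded to 0.108 to 0.176 CPM, a count scaled to the library total, in these libraries. After the filter on low counts 5 of the 9 members were left to be tested, namely HLA-B, HLA-F, B2M, TAP1 and PSMB8, and 14502 genes in all.

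The members with few counts belong to genes that the RT4 files list with many numbered copies of a transcript. The files list 8 copies each for TAP1, TAP2, PSMB8 and PSMB9, 7 for HLA-C, HLA-E and HLA-F, 6 for HLA-B and 1 for B2M. Among protein-coding genes, 15.7% of the 18955 with 1 copy were at 0 in all 6 libraries, and 68.7% of the 179 with 5 to 8 copies. Of the 175 genes of this latter class with a known position, 152 lay between 28 and 34 Mb of chromosome 6, where the MHC is. Of 5 genes of that region that are widely expressed, chosen after their values were seen, 3 were also at 0 in all libraries. These were RPS18, a ribosomal protein gene, DDX39B, an RNA helicase gene, and ABCF1, which takes part in translation. The other two, CSNK2B, a kinase subunit gene, and BRD2, which encodes a bromodomain protein, are listed with 7 copies each and had means of 12.4 and 6.76 TPM. The H3K4me3 files had the same feature, with 1.79% of the listed single-copy genes at 0 in all 3 libraries and 73.5% of those with 5 to 8 copies.

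**Figure D1:**
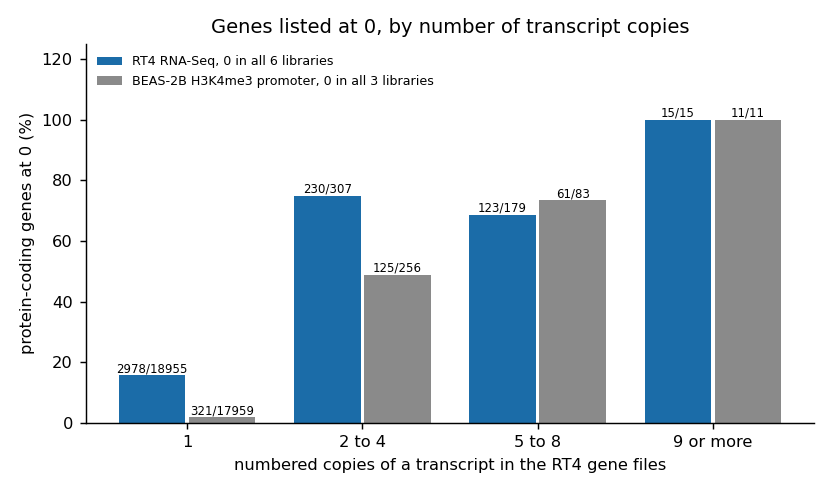
Share of protein-coding genes (%) listed at 0, by the number of numbered transcript copies in the RT4 gene files, for RT4 RNA-Seq (0 in all 6 libraries) and BEAS-2B promoter H3K4me3 (0 in all 3 libraries); the fraction over each bar gives the genes at 0 over all genes of that class in the files. Both assays show a higher share at 0 among genes with 5 to 8 copies, the class of every member except B2M, than among genes with 1 copy.

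Copies of these genes also recur in the reference. In GRCh38, which includes 16 alternate sequences of chromosome 6, 0 of the 2650 windows of 50 bases in the exons of HLA-E were found in no other place, and the same held for TAP1, PSMB8 and PSMB9. Only chromosomes 6 and 15 and their alternate sequences were searched, so that shares found in no other place are upper limits. The share found in no other place was 25.2% for HLA-B, 8.87% for HLA-C, 3.95% for HLA-F and 0.507% for TAP2. It was 0% for RPS18 and DDX39B, 2.91% for BRD2 and 2.82% for CSNK2B. Shares and counts did not have the same order, as HLA-C had 34 counts over the 6 libraries and TAP1 had 103, and as BRD2 and CSNK2B had 1591 and 958 against 326 for HLA-F. For B2M it was 6.33%, since an alternate sequence of chromosome 15 in GRCh38 repeats the gene, although the RT4 files list a single copy. How reads that match several copies were assigned is not given in the sources used here, and the part of shared sequence in the low values was not tested. Levels of all members, also of HLA-B, HLA-F and B2M, are therefore given as listed, and their order by TPM has the same limit. A 0 is not read as absence of the transcript.

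Except for B2M, the members lie in the MHC on chromosome 6 (GRCh38, GENCODE version 44). HLA-F spans positions 29722775 to 29738528 on the plus strand, HLA-C 31268749 to 31272130 and HLA-B 31353872 to 31367067 on the minus strand, and TAP2, PSMB8, PSMB9 and TAP1 lie side by side between 32821833 and 32859851. B2M lies on chromosome 15 from 44711358 to 44718851 on the plus strand. RefSeq promoters (GRCh38.p14) were matched for 8 of the 9 members. The 250 bases before the start are given 5′ to 3′ for the 3 members that the RNA results turn on, with matches to short motifs in capitals. The letters searched, on both strands, were GAAANNGAAA for an interferon-stimulated response element (ISRE) core, TTCNNNGAA for a STAT site (GAS), GGGNNTTCCC for a κB site, TGACGC for part of the X2 box that CREB factors bind, CCAAT for the box that NF-Y binds, and ACGTG, not shown in capitals, for the core of a hypoxia response element (HRE).
HLA-B, chr6:31357180-31357429, minus strand: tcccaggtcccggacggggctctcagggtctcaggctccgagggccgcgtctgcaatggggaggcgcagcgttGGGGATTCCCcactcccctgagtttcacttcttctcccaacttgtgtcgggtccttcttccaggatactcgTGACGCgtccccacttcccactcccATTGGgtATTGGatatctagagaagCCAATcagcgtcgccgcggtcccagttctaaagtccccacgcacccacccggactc
HLA-F, chr6:29723184-29723433, plus strand: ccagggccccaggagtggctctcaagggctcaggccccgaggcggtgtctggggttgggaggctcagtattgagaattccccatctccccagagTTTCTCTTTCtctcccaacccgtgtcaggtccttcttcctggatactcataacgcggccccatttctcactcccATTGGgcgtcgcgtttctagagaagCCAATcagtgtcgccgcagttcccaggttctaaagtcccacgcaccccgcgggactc
B2M, chr15:44711267-44711516, plus strand: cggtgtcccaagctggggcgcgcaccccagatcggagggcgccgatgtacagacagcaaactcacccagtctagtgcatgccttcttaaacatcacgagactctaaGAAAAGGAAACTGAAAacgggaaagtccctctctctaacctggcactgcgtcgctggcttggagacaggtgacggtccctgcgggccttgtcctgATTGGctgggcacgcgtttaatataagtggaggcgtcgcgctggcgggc

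In these windows the HLA-B promoter had a κB match at −177 to −168, the X2 match at −106 to −101 and 3 CCAAT matches, counting bases back from the start. That of HLA-F had an ISRE core at −156 to −147 and 2 CCAAT matches. The B2M promoter had a pair of overlapping ISRE cores from −144 to −129 and 1 CCAAT match. Over the 8 members the ISRE core was found in 4 (HLA-F, B2M, TAP1 and TAP2), CCAAT in 6, X2 in 3 (HLA-B, HLA-C and TAP2), GAS in 2 (TAP1 and PSMB8), κB in 1 and the HRE core in 1 (PSMB9). Of 27305 RefSeq promoters of the same length, 3.07% held the ISRE core, 33.0% CCAAT, 7.69% X2, 6.78% GAS, 1.96% κB and 18.7% the HRE core. These shares take only the first listed start of each gene, whereas the members were searched at every listed start. Both GAS matches lay at a later start and none at a first one, so the GAS count is not comparable with its share. A match describes the letters only.

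To examine whether class I genes were altered in the presence of nickel, Ni-E cells were compared with UT cells. HLA-B had 18.0 and 18.5 normalized CPM in the UT libraries, replicate 1 first, and 28.004 and 25.2 in the Ni-E libraries. HLA-F had 1.13 and 1.41 CPM in UT and 1.82 and 3.24 in Ni-E cells. B2M had 1351 and 1330.45 CPM in UT and 1495 and 1519 in Ni-E cells. For all 3 genes both Ni-E libraries lay above both UT libraries, which was the case for 20.3% of the 14502 genes tested. In such bulk samples, more cells that express a gene and more RNA per cell cannot be told apart.

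In edgeR's quasi-likelihood model of the 3 groups, none of the 5 members tested reached a 1.5-fold change with an adjusted p below 0.05 in Ni-E vs UT, while 1.45% of all genes were called higher and 0.71% lower. The log2 fold change was 0.54 ± 0.189 (SE) for HLA-B, with an edgeR adjusted p of 0.308. It was 1.00 ± 0.457 for HLA-F (edgeR adjusted p = 0.501) and 0.17 ± 0.151 for B2M (edgeR adjusted p = 0.886). The median log2 fold change was 0.42 over these 5 members and −0.01 over all genes tested. At an unadjusted p under 0.05, 1 of the 5 members passed in this comparison, which was HLA-B, beside 12.2% of all genes.

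Samples with the same replicate number deviated together, and with the replicate number as a block HLA-F was called higher in Ni-E cells (log2 fold change 0.99 ± 0.289, edgeR adjusted p = 0.0376), beside 7.64% of all genes. HLA-B passed the adjusted p but not the fold, with a 1.46-fold change (edgeR adjusted p = 0.0250); at any fold, 10.4% of all genes passed upward. B2M had an edgeR adjusted p of 0.241 with the block. Within replicate 1 the ratio of Ni-E to UT was 1.56 for HLA-B, 1.61 for HLA-F and 1.11 for B2M, and within replicate 2 it was 1.37, 2.29 and 1.14. The call of HLA-F was lost in DESeq2 with the same block (adjusted p = 0.192). It was also lost in the blocked edgeR fit without UT replicate 1, UT replicate 2 or Ni-E replicate 2, at log2 fold changes of 1.20, 0.68 and 0.88. Such fits have fewer libraries to estimate the spread, so a lost call alone does not show that the call rested on 1 library. HLA-B was called without Ni-E replicate 2, at a log2 fold change of 0.70. In these fits the group with 1 library left is assumed to vary like the others.

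**Figure D2:**
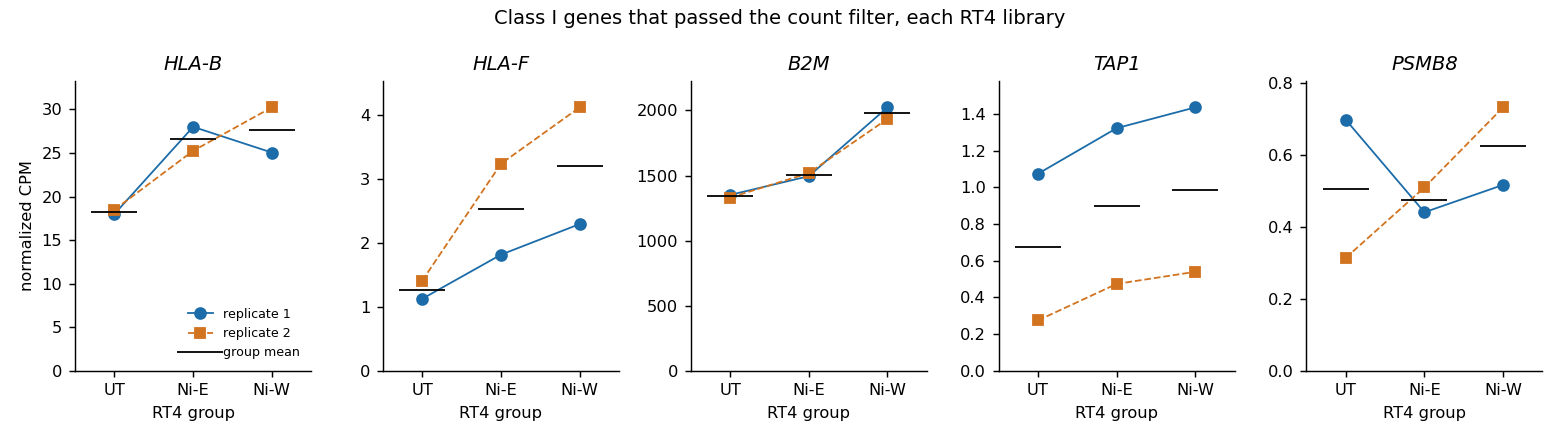
Normalized CPM (y axis, from 0) of the 5 members that passed the count filter in each RT4 library; lines join libraries with the same replicate number and black bars are group means of 2 libraries. HLA-B, HLA-F and B2M lie higher in all 4 nickel libraries than in the UT libraries, whereas TAP1 differs more between replicates than between groups.

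Next, Ni-W cells were compared with UT cells to examine what was seen after the termination of exposure. In the Ni-W libraries HLA-B had 25.1 and 30.2 normalized CPM, HLA-F 2.30 and 4.13, and B2M 2024 and 1935. Both Ni-W libraries again lay above both UT libraries for these 3 genes, as for 15.1% of the genes tested. The group means of HLA-B were 18.2 ± 0.349 CPM (SD, n = 2) in UT and 27.6 ± 3.67 in Ni-W cells, those of HLA-F 1.27 ± 0.202 and 3.21 ± 1.29, and those of B2M 1341 ± 14.6 and 1979 ± 62.5.

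Without a block no member was called in Ni-W vs UT, while 0.503% of all genes were called higher and 0.0965% lower. The log2 fold change was 0.60 ± 0.189 for HLA-B (edgeR adjusted p = 0.353), 1.34 ± 0.455 for HLA-F (edgeR adjusted p = 0.413) and 0.56 ± 0.151 for B2M (edgeR adjusted p = 0.246). At an unadjusted p under 0.05 these 3 of the 5 members passed, beside 9.12% of all genes. With the replicate block 2 members were called higher, beside 5.79% of all genes, and none lower, beside 2.78%. These were HLA-B at 1.52-fold (edgeR adjusted p = 0.0217) and HLA-F at 2.52-fold (edgeR adjusted p = 0.0116). B2M passed the adjusted p at 0.00242 in edgeR, and its 1.48-fold change lay just under the 1.5-fold limit, as that of HLA-B lay just over it. At any fold, 7.5% of all genes passed upward in this fit. In DESeq2 with the block, HLA-B kept its call (adjusted p = 0.0175), HLA-F lost it (adjusted p = 0.0580) and B2M stayed under the fold limit (adjusted p = 1.62e-05). Within replicate 1 the ratio of Ni-W to UT was 1.39 for HLA-B, 2.04 for HLA-F and 1.498 for B2M, and within replicate 2 it was 1.64, 2.92 and 1.45. In the blocked edgeR fit the call of HLA-B was lost without UT replicate 1 (log2 fold change 0.61) and without UT replicate 2 (0.59). It was also lost without Ni-W replicate 2, where its log2 fold change of 0.43 was under the fold limit. That of HLA-F was lost without UT replicate 2 (1.03). B2M no longer passed the adjusted p without UT replicate 1 or UT replicate 2 (0.56 in both), and was called without Ni-W replicate 2 at a log2 fold change of 0.59. This comparison and that of Ni-E cells share the UT libraries.

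To ask whether the washout itself altered the genes, Ni-W cells were set against Ni-E cells. B2M was higher in both Ni-W libraries than in both Ni-E libraries, and so was PSMB8 at 0.517 and 0.733 against 0.441 and 0.510 CPM, as were 12.7% of the genes tested. No member and 0% of all genes were called higher without the block by edgeR, while 808 genes had an unadjusted p under 0.05 and DESeq2 called 103 higher. The log2 fold change of B2M was 0.39 ± 0.151 (edgeR adjusted p = 0.849), and B2M was the 1 member of 5 with an unadjusted p under 0.05, beside 5.57% of all genes. With the block no member was called, beside 2.72% of all genes called higher and 1.8% lower. B2M passed the adjusted p (edgeR, 0.0302) at a 1.31-fold change, under the fold limit, as 3.2% of all genes did upward at any fold. It no longer did so without UT replicate 1, UT replicate 2 or Ni-E replicate 1, at log2 fold changes of 0.39, 0.39 and 0.36. The UT libraries enter this comparison only through the shared model. HLA-B differed by 0.06 ± 0.141 on the log2 scale with the block, with a 95% interval from −0.26 to 0.37, and HLA-F by 0.34 ± 0.256, with an interval from −0.23 to 0.91. The ratio of Ni-W to Ni-E for HLA-B was below 1 within replicate 1 (0.895) and above 1 within replicate 2 (1.20).

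**Figure D3:**
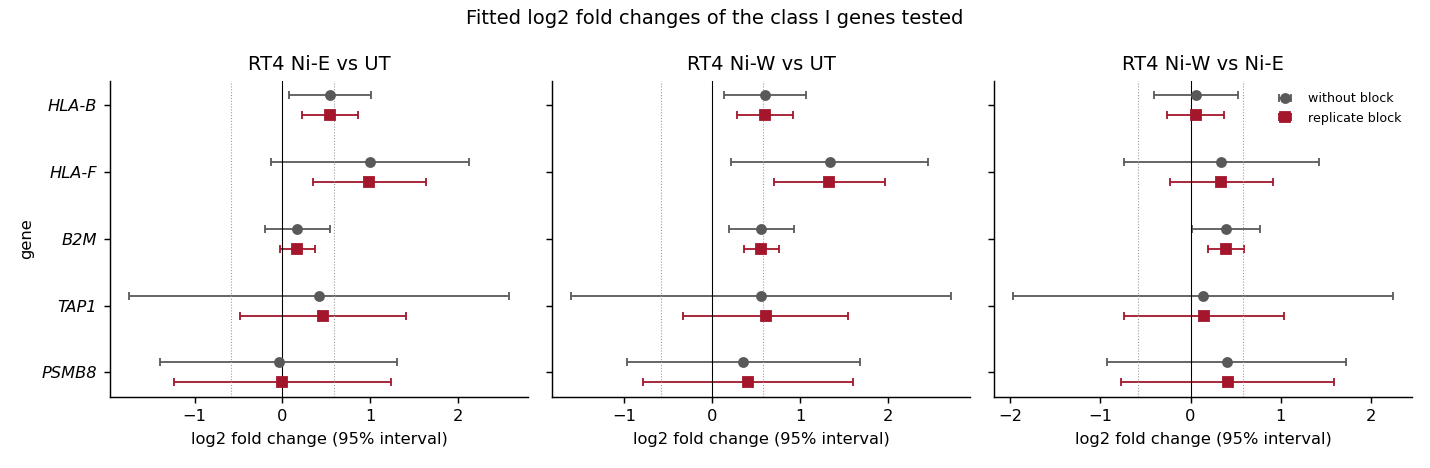
Log2 fold change (x axis) with 95% interval of the 5 members tested, in 3 comparisons of RT4 groups, fitted by edgeR without a block (grey circles) and with the replicate number as a block (red squares); dotted lines mark 1.5-fold. Both fits give nearly the same fold changes, and the intervals with the block are narrower for all 5 genes.

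TAP1 and PSMB8, which passed the filter with few counts, were called in no comparison and by no fit. TAP1 had 1.07 and 0.275 CPM in UT, 1.32 and 0.474 in Ni-E and 1.44 and 0.540 in Ni-W cells. Replicate 1 exceeded replicate 2 in each group, so that the groups overlapped. PSMB8 had 0.698 and 0.314 CPM in UT cells, a range that includes both Ni-E libraries. Their 95% intervals with the block in Ni-W vs UT ran from −0.33 to 1.55 on the log2 scale for TAP1 and from −0.78 to 1.60 for PSMB8, which does not bound a change closely.

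Other genes of the pathway were then examined from lists by function. Loading and trimming partners help to fold class I molecules or to fit their peptides, and all 7 were tested. None was called without the block. With it, ERAP1, an aminopeptidase that trims peptides in the endoplasmic reticulum, was called higher in Ni-E (log2 fold change 0.63, edgeR adjusted p = 0.0195) and Ni-W cells (0.60, edgeR adjusted p = 0.0339) against UT. The groups of ERAP1 overlapped, at 62.9 and 35.7 CPM in UT, 89.8 and 59.4 in Ni-E and 112 and 45.2 in Ni-W cells. Within replicates 1 and 2 the ratio of Ni-W to UT for ERAP1 was 1.79 and 1.26. Its relative ERAP2 was called higher in Ni-W cells (0.87, edgeR adjusted p = 0.00374). In this fit 7.64% of all genes were called higher in Ni-E and 5.79% in Ni-W cells against UT. The chaperones CALR and CANX, the disulfide isomerase PDIA3 and the tapasin relative TAPBPL were not called, nor was tapasin itself (TAPBP), which had 0.116 to 0.747 CPM. The median log2 fold change of this list in Ni-W vs UT was 0.34 with the block, against −0.01 for all genes tested.

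Among the 13 other class I and class I-like genes 8 were tested, none of which was called without the block. With the block ULBP1, a stress ligand of the NKG2D receptor, was called higher and FCGRT, the neonatal Fc receptor, was called lower in both Ni-E and Ni-W cells against UT. Of the constitutive 20S proteasome, 0 of 14 genes were called in any comparison with either fit. Of the inducible subunit PSMB10 and the PA28 genes PSME1 and PSME2, PSMB10 was called higher in Ni-W vs Ni-E with the block (log2 fold change 0.64, edgeR adjusted p = 0.0270). Of 6 MHC class II genes tested, CTSS, a protease that processes the invariant chain, was called lower in Ni-E vs UT and higher in Ni-W vs Ni-E with the block, and no other was called. The block fit called 7.64% of all genes higher and 5% lower in Ni-E vs UT. It called 5.79% and 2.78% in Ni-W vs UT, and 2.72% and 1.8% in Ni-W vs Ni-E.

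Regulators of class I transcription were all measured, and none of the 14 was called without the block. With the block IRF9, which carries interferon signals to the nucleus, was the 1 of 14 called higher in Ni-E cells, beside 7.64% of all genes. In Ni-W vs UT, 4 of 14 were called higher, namely IRF1, IRF9, NLRC5 and STAT2, beside 5.79% of all genes, and 0 lower, beside 2.78%. In Ni-W vs Ni-E, IRF1 and IRF9 were called higher, beside 2.72%. IRF9 had 19.2 and 32.3 normalized CPM in UT, 70.6 and 88.6 in Ni-E and 111 and 171 in Ni-W cells. NLRC5, the class I transactivator, had 2.74 and 2.98 CPM in UT, 4.08 and 3.83 in Ni-E and 5.69 and 4.90 in Ni-W cells. Its groups did not overlap, and both libraries lay above both of the other group for 20.3% of the genes tested in Ni-E vs UT, 15.1% in Ni-W vs UT and 12.7% in Ni-W vs Ni-E. Of the NF-κB subunits in the list, RELA differed by −0.03 on the log2 scale in Ni-W vs UT with the block. NFKB1 had 109 and 55.1 CPM in UT, 133 and 77.9 in Ni-E and 148 and 71.9 in Ni-W cells. With the block it passed the adjusted p in Ni-E vs UT (log2 fold change 0.40, edgeR adjusted p = 0.0284) and Ni-W vs UT (0.41, edgeR adjusted p = 0.0334), under the fold limit. The median of the list in Ni-W vs UT was 0.18. These genes, like ERAP1, ERAP2, ULBP1, FCGRT, PSMB10 and CTSS, are named after their values were seen.

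**Figure D4:**
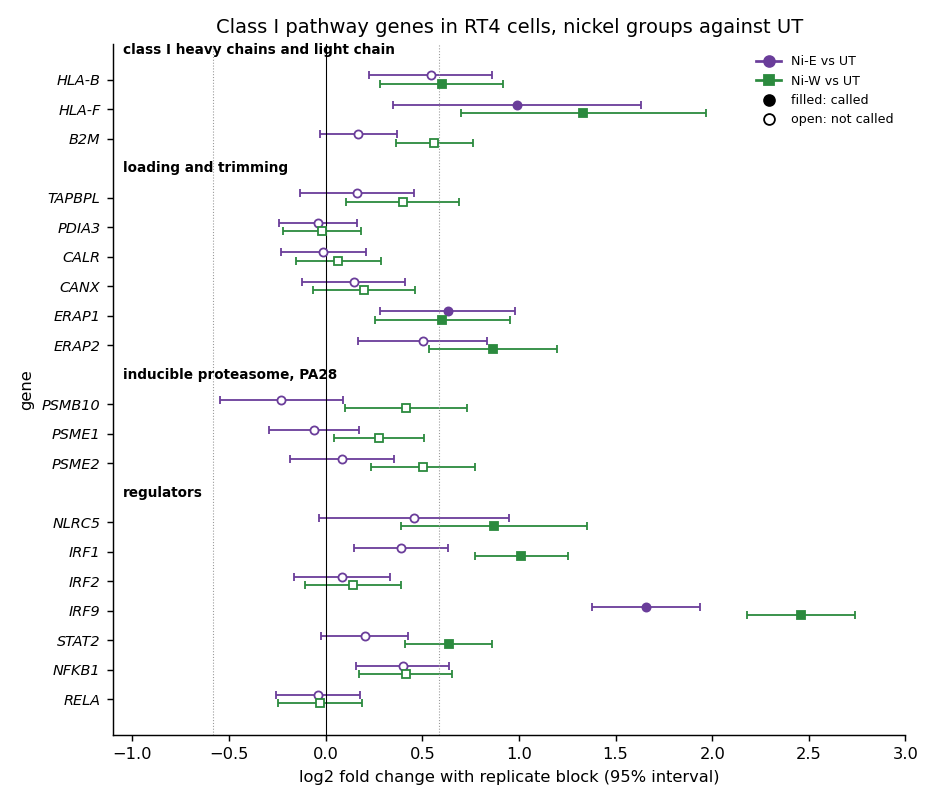
Log2 fold change (x axis, edgeR with the replicate block) with 95% interval of class I pathway genes in RT4 cells, for Ni-E vs UT (circles) and Ni-W vs UT (squares); filled symbols mark genes called at 1.5-fold and an adjusted p below 0.05, and dotted lines mark 1.5-fold. HLA-F, ERAP1 and IRF9 are called in both comparisons, while the PA28 genes PSME1 and PSME2 are open in both.

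Some interferon-stimulated genes were called without a block. Of 12 such genes, IFI27, IFI6, IFIT1, IFIT2, IFIT3 and MX1 were called higher in Ni-E and also in Ni-W cells against UT, and none in Ni-W vs Ni-E. Of all genes, 1.45% were called higher without the block in Ni-E vs UT, 0.503% in Ni-W vs UT and 0% in Ni-W vs Ni-E. With the block 9 were called higher in Ni-E vs UT, 11 in Ni-W vs UT and 10 in Ni-W vs Ni-E, and 0 lower. The shares of all genes called higher in the block fit were 7.64%, 5.79% and 2.72%. GBP2, an interferon-induced GTPase, passed the adjusted p downward in Ni-E vs UT with the block (log2 fold change −0.46, edgeR adjusted p = 0.00838), under the fold limit, and its relative GBP1 differed there by −0.19 (edgeR adjusted p = 0.380). The median over the list without the block was 1.36 on the log2 scale in Ni-E and 2.54 in Ni-W cells. MX1, an antiviral GTPase, had 21.2 and 25.8 normalized CPM in UT, 56.8 and 59.6 in Ni-E and 155 and 185 in Ni-W cells. 

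Of 10 targets of the hypoxia-inducible factor (HIF), which nickel is known to stabilize, ADM, BNIP3, EGLN3 and KDM3A were called higher in Ni-E vs UT and none in Ni-W vs UT; with the block 10 and 6 of them were, and 5 were lower in Ni-W vs Ni-E. BNIP3 had 20.3 and 19.5 CPM in UT, 75.0 and 78.3 in Ni-E and 41.6 and 42.1 in Ni-W cells. Without the block 1.45% of all genes were called higher and 0.71% lower in Ni-E vs UT, and 0.503% and 0.0965% in Ni-W vs UT. With the block these shares were 7.64% and 5% in Ni-E vs UT and 5.79% and 2.78% in Ni-W vs UT. In Ni-W vs Ni-E they were 2.72% and 1.8% with the block. Of the 12 urothelial markers, KRT13, KRT20 and UPK1A were called lower in Ni-E vs UT without the block, and KRT13 and KRT20 also in Ni-W vs UT. With the block 7 were called lower in Ni-E vs UT and 3 in Ni-W vs UT, and 6 were called higher in Ni-W vs Ni-E. The others did not all go the same way. KRT7 and UPK3B had log2 fold changes of 0.26 and 0.42 in Ni-E vs UT with the block and were not called, and the median of the list was −0.61 there and −0.07 in Ni-W vs UT. Of the 7 epithelial markers, KRT5 and KRT17 were called higher in Ni-E and Ni-W cells against UT with the block. Only 3 of the 7 had a log2 fold change above 0 in either comparison, and the median of the list was −0.02 in both. EPCAM had 204 and 223 CPM in UT, 150 and 178 in Ni-E and 143 and 159 in Ni-W cells. Of 11 immune cell markers only ITGAM and CD68 reached a mean of 1 TPM, and they made up nearly all of the summed level of the list. That sum was 11.4 to 13.1 TPM in UT, 15.8 to 19.5 in Ni-E and 21.7 to 23.65 in Ni-W cells. With the block, the fit in which HLA-B and HLA-F were called, both were also called higher in Ni-W vs UT, CD68 in Ni-E vs UT and ITGAM in Ni-W vs Ni-E; without the block neither was. Of the 2 fibroblast markers tested COL3A1 was called higher in Ni-E and Ni-W cells against UT with the block. COL1A1, the other one, was not called and had a mean of 2.76 CPM in UT, 2.26 in Ni-E and 2.27 in Ni-W cells. VWF, the 1 endothelial marker tested, was called lower in Ni-E vs UT with the block. The part of these markers in the results was not tested.

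The genes whose pattern was most like the mean of the members, over the 6 RT4 libraries, were ISY1-RAB43 (Pearson r = 0.983), TIMP2 (0.977), GABARAPL1 (0.973), LOC105374952 (0.971) and INVS (0.971). TIMP2, an inhibitor of metalloproteinases, had 5.43 and 2.98 CPM in UT, 8.54 and 7.51 in Ni-E and 9.83 and 9.91 in Ni-W cells. Of the 11139 genes compared, 134 had an r above 0.9, and the points share libraries and depth, so that these values are a description. Members with few counts weigh as much in this mean as B2M does.

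H3K4me3 was then examined at the promoters in BEAS-2B cells, as RPKM, reads scaled to window length and depth, within 2 kb of the transcription start site. The 3 libraries held 28385714, 37493940 and 29933507 reads for UT, Ni-E and Ni-W, as recovered from the steps of the RPKM values. Of the members, HLA-B, HLA-F, TAP2 and PSMB9 had no promoter in the lists used here. HLA-E, TAP1 and PSMB8 were at 0 in all 3 libraries and were treated as not counted. HLA-C had 1 read in UT, 1 in Ni-E and 0 in Ni-W cells, under the floor of 3 reads, which is 0.0264, 0.0200 and 0.0251 RPKM. In the 4 kb windows of HLA-E, TAP1 and PSMB8, 0 of 3951 runs of 50 bases were found in no other place of the reference chromosome and its alternates, while the reads were 50 bases long. Whether alternate sequences were part of the reference used for alignment is not given in the sources used here.

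B2M was thus the 1 member with a promoter level above the floor. The UT library had 43 reads there, or 0.379 RPKM with a 95% Wilson interval from 0.281 to 0.510. For Ni-E cells this was 66 reads and 0.440 RPKM (0.346 to 0.560), and for Ni-W cells 55 reads and 0.459 RPKM (0.353 to 0.598). These intervals overlap, and they cover counting error only. The level was low for these libraries, as 38.4% of promoters lay below it in UT, 40.2% in Ni-E and 41.5% in Ni-W cells, and the library medians were 1.568, 1.387 and 1.119 RPKM. Of the 3951 runs of 50 bases in its window 6.07% were found in no other place. Scaled to the library medians, B2M was at 1.31 times its UT level in Ni-E and 1.70 times in Ni-W cells. The chromatin dynamic score, the difference of the square roots of the median-scaled levels, was 0.0716 for Ni-E vs UT, within the range of ± 0.1001 that counting error gives, and 0.149 for Ni-W vs UT, outside its range of ± 0.112. With 1 library per condition neither value has a replicate check, and the rise in deposited RPKM was smaller, as the library medians differ. The share of all promoters outside these ranges was not counted, so the B2M score is not set apart from other promoters. Other weakly marked promoters moved both ways. The urothelial marker UPK3A, also at 0.379 RPKM in UT, was at 1.45 times its median-scaled UT level in Ni-W cells, and NLRC5 at 0.621 times. Since no member reached 1 RPKM, none could be counted as past 1.5-fold.

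Partner genes on other chromosomes had well-marked promoters. PSMB10 had 6.79 RPKM in UT, 6.75 in Ni-E and 3.09 in Ni-W cells. Past 1.5-fold in median-scaled RPKM in Ni-W vs UT were PSMB10 and PSME1, which were lower, beside 18.4% of the 14059 promoters compared, and PDIA3, which was higher, beside 4.36%. The other class I and 20S proteasome lists had ULBP3, PSMB5 and PSMB6 lower and PSMA3 higher. PDIA3 had 4.56 RPKM in UT, 4.66 in Ni-E and 5.45 in Ni-W cells. Of 13 regulators with at least 1 RPKM, IRF1, IRF2 and RELA were lower in Ni-W vs UT and none was higher. In Ni-E vs UT no gene of these lists was past 1.5-fold, beside 0.847% of promoters higher and 0.567% lower. In Ni-W vs Ni-E, where 4.04% of promoters were higher and 30.5% lower, none of these genes was past 1.5-fold higher. Lower were PSMB10, PSME1 and PSME2, that is 3 of 3 in the inducible list, CALR and ERAP1 of 6 loading and trimming partners, RFXANK, IRF1, IRF2 and RELA of 13 regulators, ULBP1, ULBP2 and ULBP3 of 9 other class I genes, and PSMB5 and PSMB6 of 12 genes of the 20S proteasome. The promoter of NLRC5 was at 0.282, 0.240 and 0.125 RPKM in the UT, Ni-E and Ni-W libraries. RNA was measured in RT4 and H3K4me3 in BEAS-2B cells, and their washout times differ, so that the assays were not compared gene by gene.

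**Figure D5:**
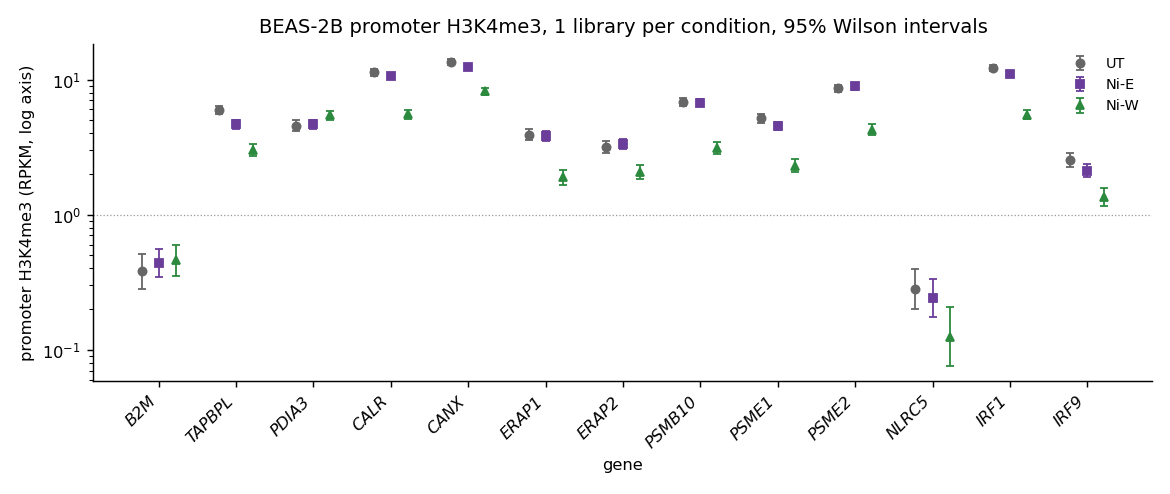
Promoter H3K4me3 (RPKM, log axis) of B2M and of class I pathway genes in BEAS-2B cells, 1 library per condition, with 95% Wilson intervals of the reads; the dotted line marks 1 RPKM. B2M and NLRC5 lie below 1 RPKM in all 3 libraries, and of the genes plotted B2M and PDIA3 have their highest level in Ni-W cells.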

How the data were processed

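For RNA-Seq, the deposited values per gene were RSEM estimated counts (expected counts), TPM and FPKM, and the FPKM as deposited entered no test. The study's methods describe STAR, hg19 and DESeq2, the submitters' processing notes name GRCh38 besides, and the reference given to RSEM is not given in the sources used here. For ChIP-Seq, the authors aligned 50-nucleotide single-end reads with BWA to hg38 and deposited promoter RPKM without peak calling. The study's methods describe 2 biological replicates, but 1 library per condition was analysed, and input libraries were not analysed here.

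Estimated counts, of which about 98% were whole, were rounded and tested with edgeR 4.0.16 (R 4.3.3; quasi-likelihood test, TMM factors, expression filter, 1 model of 3 groups, no block). A gene was called where the fold was 1.5 or more and the p, adjusted by Benjamini-Hochberg over all 14502 genes, was under 0.05. Normalized CPM use TMM library sizes. Groups and replicate numbers come from the sample titles, where 1 sample per group carries a duplicate suffix. The study describes biological replicates, while the labels do not say what a shared number marks. Same-numbered samples deviated together (correlation of deviations 0.624, 0.732 and 0.665 over the 3 pairs of groups), so blocked values stand beside the results of members and lists whose calls they change. Alternatives used DESeq2 1.42.0, limma 3.58.1 on log2(TPM + 1) and log2(TPM + 0.1), RLE factors, other filters, 2 groups at a time, and each library left out; the block in DESeq2, and each library left out with the block, were added after seeing the data. Reads behind RPKM values were recovered from their steps. Motifs were counted in promoters of GRCh38, and 50-base windows in its chromosomes 6 and 15 with their alternate sequences. On simulated data for Ni-E vs UT (14502 genes), 82 of 100 genes changed 4-fold and 4 of 100 changed 2-fold were recovered without the block, and 100 and 95 with it, with 7 and 4 wrong calls. The changed genes were drawn only from those with a mean of at least 5 CPM, which HLA-F, TAP1 and PSMB8 did not reach. Members, lists and named genes (members, list genes called without the block, and the 5 genes most like the members) were chosen with earlier results of these data known. Some genes of these lists are not reported here. Figures used Python 3.11.15 and matplotlib 3.10.9.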

Additional observations from a re-analysis of the deposited data

How the results depend on the processing

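The replicate block was the choice that mattered. It moved the number of members called higher from 0 to 1 in Ni-E vs UT and from 0 to 2 in Ni-W vs UT, with log2 fold changes of 0.99 for HLA-F in the former and 0.60 for HLA-B and 1.33 for HLA-F in the latter, and it changed no other call of a member. In DESeq2 with the block, chosen after seeing the data, 1 member was called higher in Ni-W vs UT, which was HLA-B (0.59). Over all genes, 211 were called higher and 103 lower in Ni-E vs UT without the block and 1108 and 725 with it; in Ni-W vs UT 73 and 14 became 840 and 403. DESeq2 without the block called 492 and 288 in Ni-E vs UT and 371 and 112 in Ni-W vs UT, the model without a filter 162 and 31 in Ni-W vs UT, and the model of 2 groups at a time 0 higher in Ni-W vs UT. A minimum of 10 counts gave 139 and 70 in Ni-E vs UT and 46 and 8 in Ni-W vs UT, and limma on log2(TPM + 1) 107 and 63 in Ni-E vs UT. In Ni-W vs Ni-E, where none was called, the block gave 394 and 261, DESeq2 103 and 60, no filter 9 and 5, and limma on log2(TPM + 0.1) 5 and 6. Leaving out 1 library gave 0 to 225 genes higher in Ni-E vs UT and 0 to 35 in Ni-W vs UT.

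Without the block, where no member was called to begin with, leaving out each library also gave 0 members called. With the block, a setting chosen after seeing the data, leaving out each library gave 0 to 1 members called higher in Ni-E vs UT, 0 to 2 in Ni-W vs UT and 0 in Ni-W vs Ni-E, and 0 lower. HLA-F remained called in 3 of 6 of these fits in Ni-E vs UT and in 5 of 6 in Ni-W vs UT, and HLA-B in 3 of 6 in Ni-W vs UT. In all these fits the group with 1 library is assumed to vary like the other groups. Without the block the log2 fold change in Ni-W vs UT ran from 0.46 to 0.74 for HLA-B, from 0.84 to 1.70 for HLA-F and from 0.54 to 0.59 for B2M. The sign changed in some of these fits for TAP1 and PSMB8, and in Ni-W vs Ni-E for HLA-B and HLA-F. Without the block, 2-fold changes were seldom recovered in simulated data, so that a missing call there does not bound a change of this size. With other scalings or medians the H3K4me3 scores of B2M and HLA-C moved by less than their counting error, and the number of members past 1.5-fold stayed at 0. Without median scaling, however, the B2M score for Ni-W vs UT fell inside the range that counting error gives.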
